A study of Mus musculus with 12 samples.

Results

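The genes described here encode the RNA sensors and the factors that start and carry a type I interferon response: Tlr3, Ifih1, Irf3, Irf7, Irf1, Ifnar1, Ifnar2, Stat2 and Irf9. The members were taken by name, as all probe sets that the platform annotation gives to these genes, on all 12 arrays. They are 9 genes with 17 probe sets, out of 18193 genes and 45037 probe sets measured. Where 1 value per gene is given, it is that of the probe set whose mean over the arrays was highest, and the other probe sets stand beside it.

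Double-stranded RNA is read by TLR3 in endosomes and by the helicase MDA5, the product of Ifih1, in the cytoplasm. Both pass their signal through adaptors and kinases to the interferon regulatory factors IRF3 and IRF7, which switch on interferon genes. Secreted interferon binds a receptor made of IFNAR1 and IFNAR2, whose kinases TYK2 and JAK1 activate STAT2. With IRF9 it acts in the complex ISGF3, which binds the interferon-stimulated response element (ISRE) of its target genes. Several genes of the pathway, Irf7 among them, are themselves interferon-induced in many cell types.

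The arrays hold RNA of C3H10T1/2, a mouse cell line of mesenchymal character that can form cartilage, bone and fat cells. Cells were transfected with siRNA-140, a mimic of the cartilage microRNA miR-140, or with siRNA-96 as its control. In a second experiment they received an LNA oligonucleotide that blocks endogenous miR-140 (anti-miR-140), or one against miR-449 as the control (anti-miR-449). The modified sugar of LNA (locked nucleic acid) makes such an oligonucleotide hold its microRNA tightly. Each group had 3 arrays, and no untransfected cells are among the groups, so each difference joins the effect of miR-140 with that of another microRNA. Mature microRNAs were not measured, so the gain or block of miR-140 cannot be read from these arrays. Whether the replicates of a group came from separate cultures is not in the labels, so p-values measure only the spread between these samples.

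Values are log2 expression levels made with RMA. Array medians lay between 3.95 and 4.02 in the siRNA experiment and between 4.32 and 4.38 in the anti-miR experiment, so levels are not set against each other across experiments. Over all 45037 probe sets, siRNA-140 replicate 3 correlated best with siRNA-96 replicate 2 (r = 0.998), and siRNA-96 replicate 1 correlated best with siRNA-140 replicate 1 (r = 0.995). They were not alone in this: 5 of the 6 siRNA arrays correlated best with an array of the other label, as did all 3 anti-miR-449 arrays, also when the probe sets of all genes listed here were left out (44801 probe sets). By nearest array, the siRNA arrays fell into 2 sets of 3, siRNA-140 replicates 1 and 2 with siRNA-96 replicate 1, and siRNA-140 replicate 3 with siRNA-96 replicates 2 and 3. Leaving out siRNA-140 replicate 3 and siRNA-96 replicate 1, the array of the other label in each set, leaves a comparison in which label and set cannot be told apart. Differences of the siRNA experiment are given with these 2 arrays and without them. Of 8 mesenchymal markers, 7 lay above the array median on every array, and Thy1 lay below it on every array. Of 7 leukocyte markers, 5 also lay above it on every array, and Ptprc and Itgam lay below it on every array.

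The promoters of 4 members are shown: Irf7, Stat2 and Irf1, which moved together across the siRNA arrays, and Irf3, which did not. A stretch of Ifih1 is shown because it holds a motif. Irf9 and Tlr3 also moved with the first genes but held no match to the motifs below, and their promoters are not shown. The sequences are from RefSeq (GRCm38.p6), 5′ to 3′ on the strand of the gene. Each promoter covers the 250 bases before the start of transcription, at chr7:141266425-141266674 (minus strand) for Irf7, chr10:128270248-128270497 (plus strand) for Stat2, chr11:53769764-53770013 (plus strand) for the first of the Irf1 starts and chr7:44997398-44997647 (plus strand) for Irf3. The Ifih1 stretch lies at chr2:62646206-62646235 (minus strand), 21 to 50 bases after the start. Capitals mark matches to the ISRE core (GAAA, any 2 bases, GAAA) on either strand in Stat2 and Ifih1, and in Irf1 a match to the palindrome TTCNNNGAA of the gamma-activated site (GAS), which STAT dimers bind.
Irf7: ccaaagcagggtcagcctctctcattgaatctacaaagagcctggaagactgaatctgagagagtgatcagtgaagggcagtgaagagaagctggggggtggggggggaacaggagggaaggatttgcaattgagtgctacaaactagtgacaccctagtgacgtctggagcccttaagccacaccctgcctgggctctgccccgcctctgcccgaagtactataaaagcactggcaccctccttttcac
Stat2: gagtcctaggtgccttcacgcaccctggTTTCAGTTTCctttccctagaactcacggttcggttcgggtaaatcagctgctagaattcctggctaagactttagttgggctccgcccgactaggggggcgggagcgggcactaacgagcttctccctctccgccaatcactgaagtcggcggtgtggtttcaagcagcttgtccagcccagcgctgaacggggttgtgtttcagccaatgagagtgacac
Irf1: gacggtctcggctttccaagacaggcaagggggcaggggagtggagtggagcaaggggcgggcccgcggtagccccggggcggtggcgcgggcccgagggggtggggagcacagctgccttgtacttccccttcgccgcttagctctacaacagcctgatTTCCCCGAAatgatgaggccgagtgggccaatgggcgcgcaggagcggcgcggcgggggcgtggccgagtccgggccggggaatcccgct
Irf3: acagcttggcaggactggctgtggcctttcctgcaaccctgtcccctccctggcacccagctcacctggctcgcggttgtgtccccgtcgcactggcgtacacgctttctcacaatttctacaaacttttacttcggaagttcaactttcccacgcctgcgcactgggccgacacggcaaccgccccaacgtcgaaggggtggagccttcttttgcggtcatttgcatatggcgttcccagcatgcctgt
Ifih1: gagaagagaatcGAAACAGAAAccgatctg

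Searched on both strands from 250 bases before to 50 after each start, the ISRE core was found in 2 of the 9 members, against 3.99% of 27025 genes with such a window. In Stat2 the match lay on the strand opposite the gene, at positions -222 to -213 from the start, and read TTTCAGTTTC on the strand of the gene. In Ifih1 it read GAAACAGAAA on the strand of the gene, at positions 33 to 42. A longer form, the core followed by CT, was found in 0 members and in 0.303% of genes. The GAS palindrome was found in 3 members, Irf1 (-90 to -82), Ifnar1 (spanning the start) and Ifnar2 (-214 to -206), against 9.55% of genes. Neither motif was found in these windows of Irf7, Irf9, Irf3 or Tlr3. Among the interferon-induced readout genes listed further on, 6 of the 8 with a window held the core and 4 of the 8 held the longer form. A match describes the letters of these windows and no more: it is not a bound site, and its absence says nothing of sites elsewhere.

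**Figure D1:**
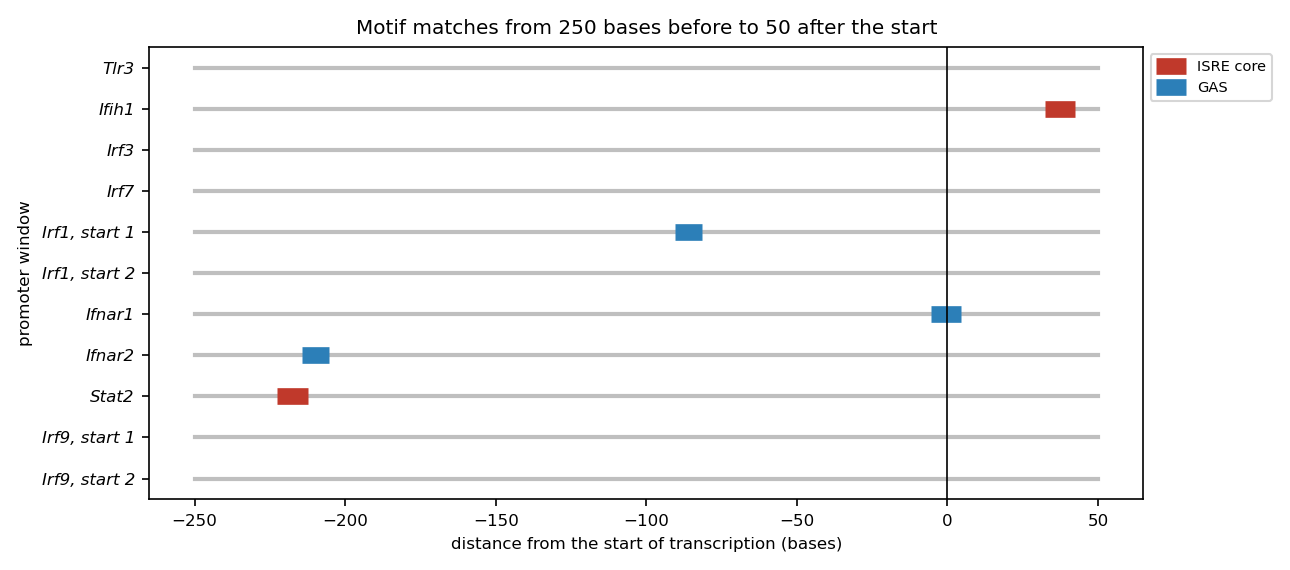
Matches to the ISRE core (red) and the GAS palindrome (blue) in the promoter windows of the 9 genes; the horizontal axis is the distance from the start of transcription in bases and each grey line is 1 window. The core falls in Stat2 and Ifih1, and the GAS palindrome in Irf1, Ifnar1 and Ifnar2.

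The first comparison asked how cells given the miR-140 mimic differ from cells given siRNA-96. In the siRNA-140 arrays, 6 of the 9 genes (Irf7, Irf9, Stat2, Ifih1, Tlr3 and Irf1) had a lower mean, with log2 differences of -0.32 to -1.38, and Irf3, Ifnar1 and Ifnar2 differed by at most 0.18. None passed the test with all arrays: limma called 0 of the 9 members at a Benjamini-Hochberg adjusted p under 0.05, as it called 0% of the 45037 probe sets. At an unadjusted p under 0.05, 2 members were lower, Irf7 and Ifih1, against 1.88% of probe sets. Once siRNA-140 replicate 3 and siRNA-96 replicate 1 were left out, the same 6 genes differed by -0.62 to -2.76 and were called lower, 6 of 9 members against 3.85% of probe sets lower (4.85% of genes) and none higher against 5.13%. The 4 remaining siRNA arrays alone called 5 of them, all but Irf1, against 1.85% of probe sets. The 2 arrays were left out for their whole profile, of which these genes are part, so the adjusted p-values without them are not independent evidence. The readout genes listed further on averaged 4.4, 4.4 and 4.4 on siRNA-140 replicates 1 and 2 and siRNA-96 replicate 1. On siRNA-140 replicate 3 and siRNA-96 replicates 2 and 3 they averaged 5.9, 7.0 and 7.6. Values without the 2 arrays, also those of single genes below, therefore do not measure siRNA-140 apart from the array set. Fits over 12 or 10 arrays share 1 estimate of the spread, although the median range of a probe set was 0.43 over the siRNA arrays and 0.31 over the anti-miR arrays. The median log2 difference of the 9 genes was -0.46 with all arrays and -1.23 without the 2 arrays, against 0.03 and 0.04 over all genes.

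**Figure D2:**
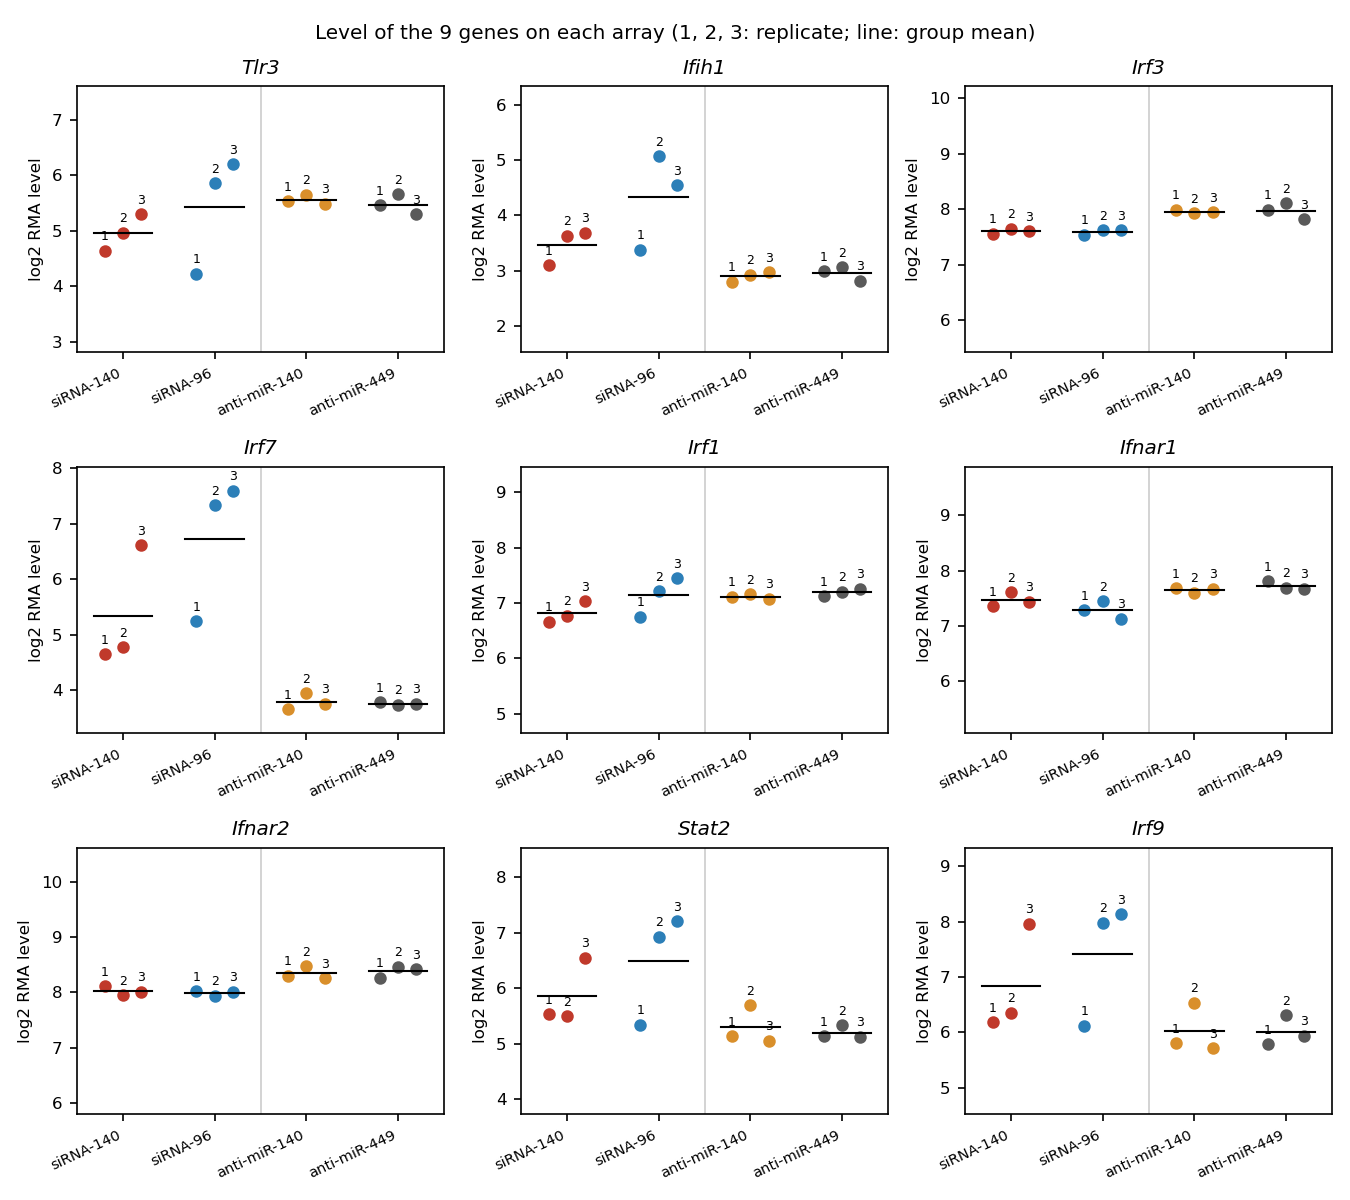
Level of each of the 9 genes on every array, on the log2 RMA scale (vertical axis, the same span in each panel); numbers are replicates, lines are group means (n = 3), and the grey line parts the siRNA from the anti-miR experiment, whose levels are not comparable. Irf7, Irf9, Stat2, Ifih1, Tlr3 and Irf1 are higher on siRNA-96 replicates 2 and 3 than on siRNA-140 replicates 1 and 2, while each of Irf3, Ifnar1 and Ifnar2 ranges over at most 0.48 on the siRNA arrays.

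Of the sensors, Tlr3, the endosomal receptor for double-stranded RNA, read 4.64, 4.97 and 5.30 on the siRNA-140 arrays and 4.23, 5.86 and 6.20 on the siRNA-96 arrays. The groups overlapped through siRNA-96 replicate 1, which was the lowest of the 6 arrays. The log2 difference was -0.46 ± 0.36 (SE; 95% interval -1.23 to 0.31; limma adjusted p = 0.882). Without the 2 arrays it was -1.23 ± 0.15 (adjusted p = 0.000242), a level 2.34-fold lower. A second probe set for Tlr3 read 3.25, 3.49 and 3.95 on siRNA-140 arrays and 3.33, 4.30 and 4.02 on siRNA-96 arrays. It differed by -0.32 with all arrays and by -0.79 ± 0.17 without the 2 arrays (adjusted p = 0.00881), the same direction at a smaller size.

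Ifih1, the cytoplasmic sensor MDA5, read 3.10, 3.63 and 3.69 on siRNA-140 arrays and 3.38, 5.07 and 4.54 on siRNA-96 arrays. These are low values: all siRNA-140 arrays, siRNA-96 replicate 1 and all anti-miR arrays lay below their array median, and only siRNA-96 replicates 2 and 3 lay above it. The log2 difference was -0.86 ± 0.30 (interval -1.51 to -0.20; adjusted p = 0.88), and without the 2 arrays -1.44 ± 0.19 (adjusted p = 0.000291), 2.71-fold lower. Leaving out siRNA-96 replicate 1 alone was enough for a call of Ifih1 (-1.33, adjusted p = 0.0133) and of Tlr3 (-1.06, adjusted p = 0.0416). Leaving out siRNA-96 replicate 2 alone gave -0.49 for Ifih1 (adjusted p = 0.668), and leaving out siRNA-96 replicate 3 alone gave -0.075 for Tlr3 (adjusted p = 0.999).

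Among the transcription factors that turn sensing into interferon, the latent factor Irf3 and the inducible factor Irf7 behaved differently. Irf3, which is present before infection and acts when phosphorylated, read 7.56, 7.65 and 7.60 on siRNA-140 arrays and 7.54, 7.62 and 7.62 on siRNA-96 arrays. All 6 arrays lay within 0.11 of each other, and the log2 difference was 0.01 ± 0.09 (interval -0.19 to 0.21; adjusted p = 0.99). Without the 2 arrays it was -0.02 (interval -0.26 to 0.23; adjusted p = 0.968). The other 3 Irf3 probe sets differed by 0.12, -0.16 and 0.15, and none was called with or without the 2 arrays.

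Irf7, the factor that amplifies interferon-alpha production, read 4.65, 4.77 and 6.61 on siRNA-140 arrays and 5.24, 7.34 and 7.60 on siRNA-96 arrays. Its range over the siRNA arrays, 2.95, was the widest of the 9 genes, and siRNA-140 replicate 3 lay above siRNA-96 replicate 1. The log2 difference was -1.38 ± 0.54 (interval -2.55 to -0.22; adjusted p = 0.88). Without the 2 arrays it was -2.76 ± 0.13 (adjusted p = 6.65e-08), which is 6.77-fold lower (interval 5.62 to 8.17). Label and array set cannot be told apart there, so this fold is not that of siRNA-140 alone. The fit of the 4 siRNA arrays alone rests on the same siRNA values and gave the same difference (limma adjusted p = 9.87e-06). Only its estimate of the spread differs. The arrays measure whole cultures, so fewer cells that express a gene and less of its RNA per cell cannot be told apart.

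Irf1, a factor that binds promoters of interferon and interferon-induced genes, read 6.66, 6.77 and 7.03 on siRNA-140 arrays and 6.75, 7.21 and 7.45 on siRNA-96 arrays. The order of the arrays was like that of Irf7 on a narrower scale, with a range of 0.79. The log2 difference was -0.32 ± 0.15 (interval -0.64 to 0.01; adjusted p = 0.88). Without the 2 arrays it was -0.62 ± 0.11 (adjusted p = 0.00372), a level 1.53-fold lower, but the 4 siRNA arrays alone did not call it (adjusted p = 0.052).

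The receptor subunits did not pass the test in any of these fits. Ifnar1 read 7.36, 7.61 and 7.44 on siRNA-140 arrays and 7.28, 7.45 and 7.13 on siRNA-96 arrays, and differed by 0.18 ± 0.10 (interval -0.04 to 0.41; adjusted p = 0.88). Ifnar2, the subunit that binds interferon with high affinity, read 8.11, 7.95 and 8.01 on siRNA-140 arrays and 8.02, 7.94 and 8.01 on siRNA-96 arrays, and differed by 0.03 ± 0.10 (interval -0.17 to 0.24; adjusted p = 0.965). Without the 2 arrays the differences were 0.20 (interval -0.08 to 0.47) for Ifnar1 and 0.06 (interval -0.20 to 0.31) for Ifnar2. The other probe set of Ifnar1 differed by 0.01, and the other probe sets of Ifnar2 by -0.13 and 0.01, or by -0.27 (interval -0.54 to 0.01; adjusted p = 0.264) and -0.23 (interval -0.54 to 0.08; adjusted p = 0.426) without the 2 arrays.

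The partners in ISGF3 moved together. Stat2 read 5.53, 5.49 and 6.55 on siRNA-140 arrays and 5.34, 6.93 and 7.21 on siRNA-96 arrays. Irf9 read 6.19, 6.36 and 7.96 on siRNA-140 arrays and 6.12, 7.98 and 8.14 on siRNA-96 arrays. For both genes siRNA-140 replicate 3 lay near siRNA-96 replicates 2 and 3, and siRNA-96 replicate 1 was the lowest of the 6. The log2 difference was -0.64 ± 0.39 for Stat2 (interval -1.48 to 0.21; adjusted p = 0.88) and -0.58 ± 0.50 for Irf9 (interval -1.65 to 0.50; adjusted p = 0.889). Without the 2 arrays Stat2 differed by -1.56 ± 0.18 (adjusted p = 0.000135, 2.95-fold) and Irf9 by -1.79 ± 0.23 (adjusted p = 0.00031, 3.45-fold). The second Stat2 probe set read 4.97, 5.18 and 5.82 on siRNA-140 arrays and 5.28, 6.40 and 6.85 on siRNA-96 arrays, and gave -0.85 with all arrays and -1.55 without the 2 arrays (adjusted p = 0.000145).

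Across the 6 members called without the 2 arrays, the order of siRNA-140 replicate 3 was the same, but its distances and the place of siRNA-96 replicate 1 varied. Ifih1 read 3.69 on siRNA-140 replicate 3, close to the 3.63 of siRNA-140 replicate 2. Irf9 read 7.96 on it, close to the 7.98 of siRNA-96 replicate 2. The array siRNA-140 replicate 3 lay above siRNA-140 replicates 1 and 2 in 6 of 6 genes and below siRNA-96 replicates 2 and 3 in 6 of 6. The array siRNA-96 replicate 1 lay below siRNA-96 replicates 2 and 3 in 6 of 6, below both siRNA-140 replicates 1 and 2 in 3 (Irf9, Stat2 and Tlr3), and above both in 1 (Irf7). The highest array was siRNA-96 replicate 3 in 5 of the 6 genes. The 6 genes were picked by a contrast of the other siRNA arrays, and the same counts were not made over all probe sets. These positions are therefore a description only. With 1 siRNA array left out at a time, the log2 difference ran from -2.13 to -0.95 for Irf7, from -1.22 to -0.21 for Irf9 and from -1.21 to -0.28 for Stat2. It ran from -1.33 to -0.49 for Ifih1, from -1.06 to -0.075 for Tlr3 and from -0.51 to -0.16 for Irf1. The lowest value came without siRNA-96 replicate 1 in 6 of 6 genes, and the one nearest 0 came without siRNA-96 replicate 3 in 5 of them and without siRNA-96 replicate 2 for Ifih1. Leaving out siRNA-140 replicate 3 alone gave -2.02 for Irf7, -1.14 for Irf9 and -0.98 for Stat2, with 0 members called. With this overlap, 0 of the 9 members had siRNA-140 and siRNA-96 arrays that did not overlap, against 2.60% of probe sets separated with siRNA-140 lower and 3.50% with siRNA-140 higher. The exact two-sided permutation test gave p between 0.2 and 0.9 for the 9 genes over both experiments, where 3 arrays against 3 cannot go below 0.1.

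The control probe sets for 18S ribosomal RNA averaged 5.62, 6.73 and 5.68 on the siRNA-140 arrays and 10.5, 5.40 and 7.86 on the siRNA-96 arrays. The high value fell on siRNA-96 replicate 1, and siRNA-140 replicate 3 was not set apart by it. In the anti-miR experiment anti-miR-449 replicate 1 was as high, at 10.2, and the other 5 arrays lay between 5.92 and 6.75. On the log2 scale the 3′ over 5′ signal of the Actb control lay between 0.16 and 0.36 on all arrays. The part of these values in the results was not tested. Of the mesenchymal markers 1 of 8 was called lower in both fits without the 2 arrays, Col3a1 (-1.12 ± 0.10, adjusted p = 1.44e-05), which differed by -0.28 with all arrays. The summed linear level of the 7 measured leukocyte markers was 147 to 166 on siRNA-140 arrays and 164 to 170 on siRNA-96 arrays, with 0 of 7 called in both fits. Of the 3 measured markers of plasmacytoid dendritic cells, a cell type rich in IRF7, only Bst2 was called in both fits (-3.20, against -1.71 with all arrays), and it is itself interferon-induced. Their summed linear level was 303 to 460 on siRNA-140 arrays and 288 to 729 on siRNA-96 arrays. The other markers went opposite ways on the arrays kept. Siglech read 4.53, 4.47 and 4.53 on siRNA-140 arrays and 4.20, 4.20 and 4.34 on siRNA-96 arrays. Tcf4 read 7.97, 7.97 and 8.30 on siRNA-140 arrays and 7.78, 8.29 and 8.37 on siRNA-96 arrays. It was lower on siRNA-140 replicates 1 and 2 than on siRNA-96 replicates 2 and 3. Whether cell types differ between the arrays was not tested. Of the endothelial markers 1 of 4, Tek, was called higher (0.60, adjusted p = 0.00903, and 0.39 with all arrays), and of the 5 epithelial markers none was called.

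**Figure D3:**
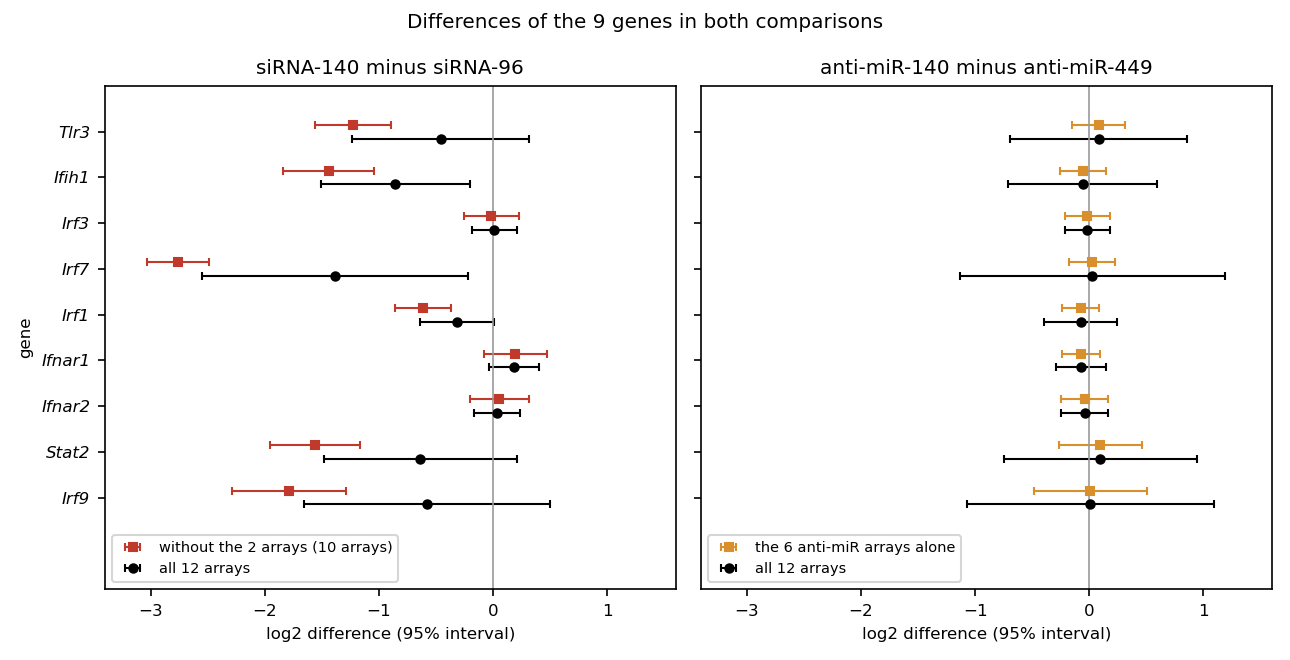
Log2 difference (horizontal axis) and 95% interval from limma for each gene, left for siRNA-140 minus siRNA-96 and right for anti-miR-140 minus anti-miR-449; black circles are all 12 arrays, red squares the 10 arrays left after siRNA-140 replicate 3 and siRNA-96 replicate 1 were dropped, and orange squares the 6 anti-miR arrays alone. Irf7 has the lowest value on the left, -2.76 without the 2 arrays, and on the right the 9 genes lie between -0.08 and 0.10.

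The second comparison asked whether blocking endogenous miR-140 moves the same genes. The 9 genes differed between anti-miR-140 and anti-miR-449 by -0.08 to 0.10 on the log2 scale, with a median of -0.02. limma called 0 of the 9 and 0% of probe sets at an adjusted p under 0.05, and 0 of the 9 against 2.27% of probe sets at an unadjusted p under 0.05. Irf7 read 3.65, 3.94 and 3.75 on anti-miR-140 arrays and 3.78, 3.73 and 3.75 on anti-miR-449 arrays, below the array median on all 6. The groups overlapped, and the difference was 0.03 (interval -0.17 to 0.23 from the 6 anti-miR arrays alone).

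Irf9 read 5.81, 6.54 and 5.72 on anti-miR-140 arrays and 5.79, 6.31 and 5.94 on anti-miR-449 arrays. Stat2 read 5.13, 5.69 and 5.05 on anti-miR-140 arrays and 5.13, 5.33 and 5.12 on anti-miR-449 arrays. In both genes replicate 2 was the highest of each group, and the groups overlapped. The differences were 0.01 for Irf9 (interval -0.49 to 0.51 from the 6 arrays alone) and 0.10 for Stat2 (interval -0.27 to 0.46). Tlr3 read 5.53, 5.65 and 5.49 on anti-miR-140 arrays and 5.46, 5.66 and 5.30 on anti-miR-449 arrays, a difference of 0.08 (interval -0.15 to 0.32). Ifih1 stayed between 2.80 and 2.97 with anti-miR-140 and between 2.82 and 3.06 with anti-miR-449, which is below the array median throughout.

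Irf1 lay between 7.08 and 7.16 with anti-miR-140 and between 7.12 and 7.26 with anti-miR-449, a difference of -0.08. Irf3 lay between 7.93 and 7.99 with anti-miR-140 and between 7.82 and 8.11 with anti-miR-449, a difference of -0.02. For the receptor, Ifnar1 lay between 7.60 and 7.68 with anti-miR-140 and between 7.67 and 7.81 with anti-miR-449, a difference of -0.07. Ifnar2 lay between 8.25 and 8.47 with anti-miR-140 and between 8.26 and 8.46 with anti-miR-449, a difference of -0.04, so the groups of all 4 genes overlapped. The limma adjusted p of the 9 genes was 1 in each case. From the 6 anti-miR arrays alone, intervals for all genes but Irf9 and Stat2 lay within 0.32 of 0. Among the other probe sets, 1 for Irf3 separated the groups, with 3.06, 2.92 and 2.76 under anti-miR-140 and 3.24, 3.43 and 3.20 under anti-miR-449. It lay below the array median on all arrays, differed by -0.38 (unadjusted p = 0.00661, limma adjusted p = 1), and 4.34% of probe sets separated with anti-miR-140 lower.

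The array anti-miR-140 replicate 2 was the highest of the 6 anti-miR arrays for Irf7, Irf9, Stat2 and Ifnar2. Usp18, an inhibitor of the interferon receptor, read 4.45 on it and 3.31 to 3.33 on the other anti-miR-140 arrays, against 3.13 to 3.73 with anti-miR-449. Ifit1 likewise read 4.97 on it and 3.15 to 3.22 on the others, against 3.01 to 3.30 with anti-miR-449. Both genes were chosen for mention after their values were seen. Of the 11 readout genes listed further on, anti-miR-140 replicate 2 was the highest of the 6 arrays in 3, and anti-miR-449 replicate 1 in 5. For Mx1, Mx2, Oas2 and Ifit2, anti-miR-140 replicate 2 was the lowest of its group. Over the 6 arrays Irf7 ranged by 0.29, Irf9 by 0.82 and Stat2 by 0.64, where the siRNA experiment gave 2.95, 2.02 and 1.87. Irf3 and Ifnar2 ranged over 0.11 and 0.17 in the siRNA experiment and over 0.29 and 0.22 in the anti-miR experiment. A range of at least 1 was found for 4.06% of probe sets in the siRNA experiment and for 0.144% in the anti-miR experiment.

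Tested directly, the difference between the siRNA effect and the anti-miR effect did not pass for any member. It was -1.41 ± 0.76 for Irf7 (interval -3.05 to 0.23), -0.80 ± 0.43 for Ifih1 (interval -1.72 to 0.12) and -0.73 ± 0.56 for Stat2. The adjusted p was 0.997 for each of the 9 genes, and 0% of probe sets passed.

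The genes around the members in the pathway were taken from lists, and those called lower or higher in both fits without the 2 arrays are named. Such calls made up 1.84% of probe sets on the lower side and 2.01% on the higher side. Both fits rest on the same siRNA arrays and differ only in their estimate of the spread, so they are not separate evidence. Of 22 measured sensors and adaptors, 4 were lower and 0 higher. They were Dhx58 (-2.19 ± 0.18) and Ddx58 (-2.05 ± 0.17), which encode the RIG-I-like receptors LGP2 and RIG-I, the helicase gene Ddx60 (-1.90 ± 0.15) and the RNA-activated kinase gene Eif2ak2 (-1.03 ± 0.17), with adjusted p-values of at most 0.0015. With all arrays they differed by -0.94, -0.89, -0.93 and -0.41 in that order. With Ifih1 (-1.44), all genes of the RIG-I-like receptor family were thus lower. Ddx58 read 7.22, 6.76 and 8.56 on siRNA-140 arrays and 7.15, 8.83 and 9.24 on siRNA-96 arrays, in which siRNA-140 replicate 3 and siRNA-96 replicate 1 lay nearer the other group. The adaptor gene Mavs differed by 0.12 (adjusted p = 0.678), and by 0.10 with all arrays.

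Of 13 kinases and ubiquitin factors between the sensors and the IRFs, Tnfaip3, which restrains NF-kB signalling, was lower (-1.26, adjusted p = 8.52e-06), and Fadd, an adaptor of death receptors, was higher (0.88, adjusted p = 0.000182). With all arrays Tnfaip3 differed by -0.29 and Fadd by 0.29. Of 11 other IRF and STAT factors 0 were lower and 1 was higher, Stat6 (0.66, adjusted p = 0.000937), a factor of interleukin-4 signalling. Among 18 receptor kinases, other interferon receptors and inhibitors, Usp18 was lower (-4.85 ± 0.35, adjusted p = 2.45e-06, and -2.11 with all arrays), and Pias2, an inhibitor of STAT factors, was higher (0.62, adjusted p = 0.00338). With all arrays Stat6 differed by 0.30 and Pias2 by 0.21. The kinases that sit on the receptor, Jak1 (0.13, adjusted p = 0.64) and Tyk2 (-0.11, adjusted p = 0.619), were not called, and differed by 0.09 and -0.04 with all arrays.

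Of 10 measured interferon ligands, 0 were called in both fits. Ifnz, chosen for mention after its values were seen, was the single one called with 10 arrays, where it was higher (0.64 ± 0.14, adjusted p = 0.012), but not with the 4 siRNA arrays (adjusted p = 0.0884), and it differed by 0.27 with all arrays. Ifnb1, the interferon gene that fibroblasts make first, read 3.79, 3.95 and 3.74 on siRNA-140 arrays and 3.65, 4.01 and 4.37 on siRNA-96 arrays, and differed by -0.32 ± 0.20 without the 2 arrays (adjusted p = 0.416) and by -0.18 with all arrays. Of the siRNA arrays, only siRNA-96 replicates 2 and 3 lay above the array median for it, and of the anti-miR arrays anti-miR-140 replicate 2 and anti-miR-449 replicates 2 and 3. Without the 2 arrays, the readout genes, chosen as known targets of interferon, were called lower in 11 of 11 cases. With 10 arrays 4.85% of all genes were called lower. The readout genes had a median of -2.99, where the members had one of -1.23. In these fits label and array set cannot be told apart. With all arrays the medians were -1.59 for the readout genes, whose differences lay between -2.46 and -0.45, and -0.46 for the members. The readout genes ran, without the 2 arrays, from Iigp1, an interferon-induced GTPase (-5.27 ± 0.31), Oasl2 (-4.74), Ifit1 (-4.02), Ifit3 (-3.99), Gbp3 (-3.47) and Rsad2 (-2.99), all antiviral or GTPase genes, to -1.05. With all 12 arrays, 0 genes of any of these lists were called. The lists were written with earlier results of these data known, so their direction is not independent evidence.

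**Figure D4:**
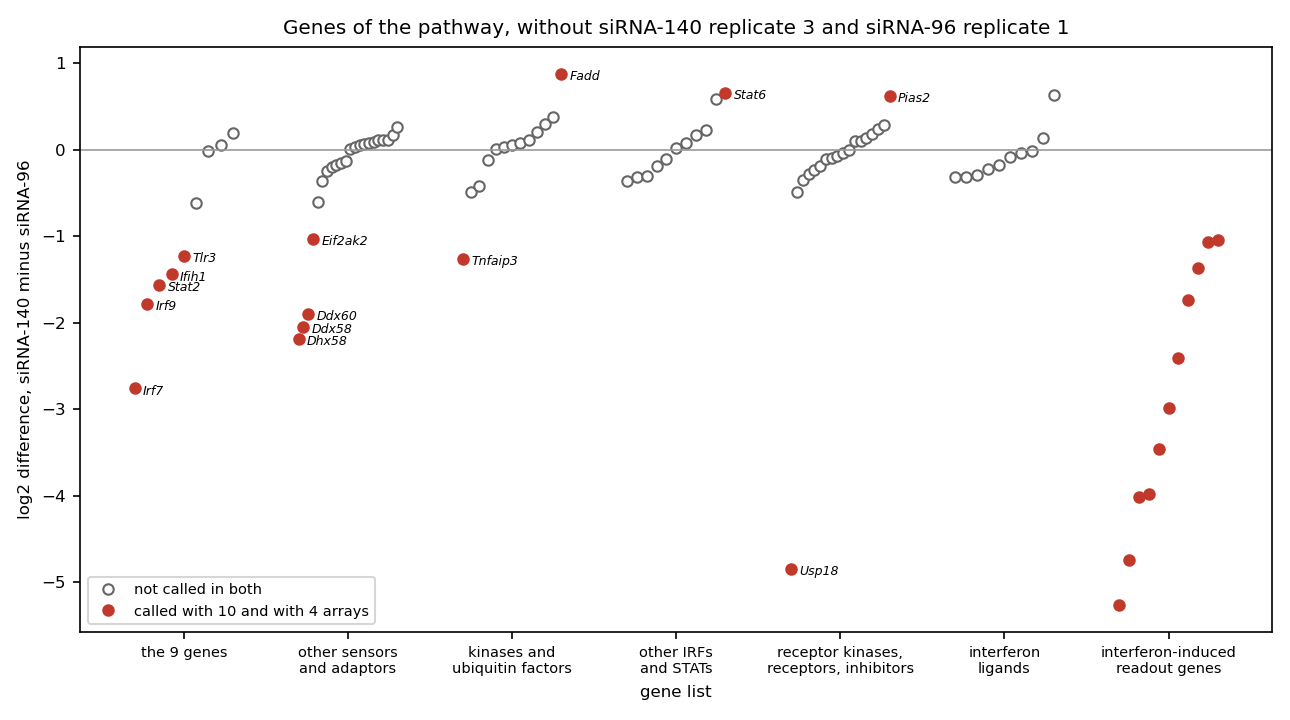
Log2 difference, siRNA-140 minus siRNA-96 on the 10 arrays left after siRNA-140 replicate 3 and siRNA-96 replicate 1 were dropped (vertical axis), for the 9 genes and 6 lists of pathway genes (horizontal axis); each point is a gene, filled red where limma called it in both the 10-array and the 4-array fit. Called lower were 5 of the 9 genes, 4 of 22 sensors and adaptors and 11 of 11 readout genes. Among 13 kinases and ubiquitin factors 1 was lower and 1 higher. Among 18 receptor kinases, receptors and inhibitors 1 was lower (Usp18, -4.85) and 1 higher. Of 11 other IRFs and STATs 1 was higher. The 10 interferon ligands lie between -0.32 and 0.64 with none called in both fits.

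Over the 12 arrays, after the mean of each experiment was subtracted, the members fell into those that moved together and those that did not. Pearson r was 0.97 between Stat2 and Irf9, 0.95 between Irf7 and Stat2 and 0.94 between Irf7 and Irf1. Tlr3 and Ifih1 followed Stat2 with r of 0.93 and 0.81. Irf3 correlated with Irf7 at 0.13, Ifnar2 at -0.18 and Ifnar1 at -0.39. These values describe 12 points that share arrays and whose spread comes mostly from the siRNA experiment. Among the 6 anti-miR arrays alone r was 0.95 between Stat2 and Irf9, and 0.11 between Irf7 and Irf1.

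Among 9799 genes with a mean of at least 5, the pattern of Irf7 was most like those of Bst2 (r = 0.99), Irgm1 (0.99) and Phf11d (0.98). For Stat2 the nearest were Nmi (0.99), Parp9 (0.98) and B2m (0.98), and for Irf9 they were Flna (0.99), Nmi (0.98) and St3gal5 (0.98). Irf1 was most like Rnf213 (0.99), Oas1a (0.97) and Samd9l (0.97), and Tlr3 most like Ifi47 (0.97), Tor1aip2 (0.97) and Ifit2 (0.96). Ifih1 had weaker neighbours, led by Zscan21 (0.94). For the genes that hardly varied, the nearest patterns were those of Wrap73 for Irf3 (0.88), Tent4b for Ifnar1 (0.94) and Ces2g for Ifnar2 (0.91). Within the anti-miR arrays alone, r was -0.05 for Tlr3 with Ifi47 and 0.47 for Irf7 with Phf11d. It was 0.93 for Irf1 with Rnf213 and 0.99 for Irf9 with Flna. For Ifnar2 with Ces2g it was 0.99 in the anti-miR and 0.67 in the siRNA arrays. The r values further above are over 12 arrays with the same array in each point, and they carry no test.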

How the data were processed

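RNA of C3H10T1/2 cells was measured on 12 Affymetrix mouse arrays in 4 groups of 3, grouped by sample title. The values deposited by the authors are log2 expression levels from RMA, as the submitters' processing notes state. The RMA version, the probe set definitions and whether the experiments were normalized together are not given in the sources used here, and the quartiles of the arrays differ between the experiments. The table keeps no detection calls, so a level below the array median is given as a sign of a dim probe set, and the number of arrays limits the precision.

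Of 45101 probe sets, 64 array controls were left out and 45037 tested with no filter on level. Symbols came from the platform annotation: 34945 probe sets had 1 symbol, 932 several and 9160 none. The RefSeq table (GRCm38.p6) held the gene ID of 34741 of the first kind, and 0 symbols changed. Genes were named only from probe sets with 1 symbol.

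All probe sets were fitted with limma 3.58.1 in R 4.3.3 (lmFit and eBayes, 4 group means, 12 arrays) and called where the p adjusted after Benjamini-Hochberg was under 0.05. The fit was tested on simulated data. Further fits used 10 arrays (siRNA-140 replicate 3 and siRNA-96 replicate 1 left out), the 4 siRNA arrays of these, or the 6 arrays of 1 experiment. The fold changes are 2 to the power of the log2 difference. Alternatives were a further quantile normalization, median centring, each array left out, probe sets of at least median level only, robust variances with an intensity trend, limma's array weights, an unadjusted p, a fold of 1.5, the replicate number as a block, the mean of a gene's probe sets and each other probe set.

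Always named were the members, Ddx58, Dhx58, Mavs, Jak1, Tyk2 and Ifnb1, with up to 6 genes per list and direction called in both the 10-array and the 4-array fit, and the 3 genes most like each member by Pearson r. The motif TTCNNNGAA was added after the data had been seen. So were values chosen for the 2 arrays, Usp18 and Ifit1 under anti-miR, Siglech, Tcf4 and the single called markers. Members, lists and the 2 arrays left out were chosen with earlier results of these data known.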

Additional observations from a re-analysis of the deposited data

How the results depend on the processing

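Limits are set by 3 arrays per group, by siRNA arrays of which 5 of 6 stand nearest to an array of the other label, and by dim probe sets for Ifih1 (on all arrays but siRNA-96 replicates 2 and 3) and for Irf7 under anti-miR, where small differences cannot be read. With siRNA-140 replicate 3 and siRNA-96 replicate 1 left out together, the siRNA comparison called 6 members and 4043 probe sets with 10 arrays, and 5 members and 1743 probe sets with the 4 siRNA arrays alone. Leaving out 1 array at a time called 0 to 2 members and 0 to 36 probe sets in the siRNA comparison. The 2 members, Ifih1 and Tlr3, and the 36 probe sets came without siRNA-96 replicate 1, and 25 probe sets came without siRNA-96 replicate 2. The median difference of the members was -1.06 without siRNA-96 replicate 1 and -0.16 without siRNA-96 replicate 3, and lay between these without each of the others. The cause was not tested. At an unadjusted p under 0.05 there were 2 members and 2292 probe sets, and 1022 probe sets in the anti-miR comparison, where no other alternative called any.

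Some differences near 0 changed sign. For siRNA-140 minus siRNA-96, Irf3 was -0.043 after further quantile normalization, -0.016 with array weights, -0.163 by another probe set and -0.015 with 10 or 4 arrays, and -0.0167 to 0.0317 with 1 array left out. Ifnar2 was -0.026 after quantile normalization, -0.03 as the mean of its probe sets, -0.13 by another probe set, and -0.01 to 0.07 with 1 array left out. For anti-miR-140 minus anti-miR-449, Irf9 was -0.0056 after quantile normalization and -0.092 with array weights, Irf3 0.033, Stat2 -0.09 and Ifnar2 0.053 by another probe set. With 1 array left out these ran from -0.248 to 0.162 for Irf9, -0.0933 to 0.0517 for Irf3, -0.103 to 0.217 for Stat2, -0.105 to 0.005 for Ifnar2, -0.0533 to 0.0917 for Irf7 and -0.0033 to 0.177 for Tlr3. None of these was called under any alternative.

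With the replicate number as a block, 0 members and 0 probe sets were called in either comparison, as without it, and the adjusted p of Irf7 and Ifih1 in the siRNA comparison was 0.587. Deviations of same-numbered arrays correlated at 0.41, -0.24 and 0.44 in the siRNA experiment and at -0.01, 0.10 and -0.03 in the anti-miR experiment. Differently numbered siRNA arrays correlated at -0.68 to 0.49, so these values cannot show whether the numbers pair the samples.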
